A study of Aspergillus nidulans with 6 samples.

Results

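The 5 genes described here are sterol-related and were picked by their identifiers in a table of 10988 features. They were AN4923 (erg13), the hydroxymethylglutaryl-CoA (HMG-CoA) synthase gene, AN3817 (hmg1), the HMG-CoA reductase gene, AN1901 and AN8283, the pair of sterol 14-alpha demethylase genes, and AN7661 (srbA), the gene of a sterol regulatory element-binding protein. All 5 genes were found in the table and all 5 passed the filter on low counts. The gene table used for names gave symbols to erg13 and hmg1 only, and the roles of the other members were those assigned when the genes were chosen.

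The 6 libraries hold mycelial RNA of the filamentous fungus Aspergillus nidulans. All cultures were the wild type strain FGSC A4, shaken in Barratt's minimal broth, so both groups share strain and medium. In 3 libraries the culture was untreated and in 3 it had received 35 mM tyrosol during exponential growth. Tyrosol, a phenolic alcohol made from tyrosine, is secreted by several fungi and acts on their own growth and development. The time between addition and harvest and the age of the cultures are not given in the sources used, and the label mycelium was taken as given. The libraries held 9353438 to 11917409 counted reads.

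Ergosterol is the main sterol of fungal membranes and is built from acetyl-CoA through mevalonate, squalene and lanosterol. HMG-CoA synthase and HMG-CoA reductase catalyse successive steps before mevalonate, and the reductase is widely known as a control point of the route. The sterol 14-alpha demethylase, a cytochrome P450 that removes a methyl group from a sterol intermediate, is the target of azole antifungals, and several aspergilli carry more than one gene for it. In Aspergillus fumigatus, SrbA is a membrane-bound transcription factor that is released by proteolysis when sterol or oxygen is low and then raises transcription of sterol genes, including a demethylase gene.

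The 4 enzyme genes fell in the tyrosol libraries and srbA rose. The fall was 26.5-fold for erg13, 4.11-fold for AN8283, 2.71-fold for hmg1 and 2.18-fold for AN1901, whereas srbA rose 2.68-fold. All 5 calls are at an adjusted p under 0.05 in edgeR's quasi-likelihood test across 8905 features. The response to tyrosol was broad. Of the tested features 42.9% were lowered and 40.6% raised, 24.5% were lowered at least 2-fold and 23.1% raised at least 2-fold. Calls in both directions are therefore common in this comparison.

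Levels are given as RPKM, the reads of a gene scaled by its listed length and by the counted reads of the library. Log2 fold changes compare tyrosol with untreated libraries, carry their SE and were scaled with TMM factors, which makes them differ from ratios of RPKM means. In bulk RNA, fewer cells that express a gene and less RNA of it per cell cannot be told apart.

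Among the enzymes of the route to mevalonate, erg13 had the strongest change of the 5 genes. HMG-CoA synthase joins acetyl-CoA and acetoacetyl-CoA. Its gene stood at 136, 134 and 117 RPKM in untreated replicates 1, 2 and 3 and at 4.41, 3.28 and 4.75 RPKM in tyrosol replicates 1, 2 and 3. The untreated libraries were all high, the tyrosol libraries all low, and the groups lay far apart. The means were 129 ± 10.3 and 4.15 ± 0.773 RPKM (SD, n = 3 each). The log2 fold change was -4.73 ± 0.13 (edgeR adjusted p = 3.67e-12). The tyrosol values rest on 84, 66 and 98 reads, against 2894, 2852 and 1958 untreated, and their relative spread (18.6%) was the widest of the members in that group. Ranked from the largest fall, erg13 was number 32 of the 8905 tested features.

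HMG-CoA reductase makes mevalonate from the synthase's product. Its gene hmg1 stood at 49.8, 41.5 and 42.7 RPKM untreated and at 13.5, 14.9 and 14.1 RPKM with tyrosol. Every tyrosol library lay below every untreated one, with a gap larger than the spread inside either group. The means were 44.7 ± 4.5 and 14.1 ± 0.716 RPKM (SD, n = 3 each). The log2 fold change was -1.44 ± 0.10 (edgeR adjusted p = 1.07e-08).

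The levels of these successive steps changed order. Untreated, the erg13 level was 2.72, 3.22 and 2.74 times the hmg1 level in the 3 libraries, and with tyrosol it was 0.328, 0.220 and 0.338 times the hmg1 level. The mean log2 ratio of erg13 to hmg1, computed on RPKM + 0.5, went from 1.52 ± 0.14 to -1.67 ± 0.31 (SD, n = 3 each). The difference was -3.19, and all tyrosol ratios lay below all untreated ratios. The exact two-sided permutation test gave p = 0.1, which is the smallest value that 3 libraries against 3 can give. Library scaling cancels in such a ratio apart from the added 0.5. With 0.1 or 1 added to RPKM instead, the difference was -3.29 or -3.07.

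The demethylase genes both fell, and they fell unequally. AN1901 stood at 239, 211 and 185 RPKM untreated and at 83.1, 75.9 and 90.7 RPKM with tyrosol. The groups did not overlap, and the untreated libraries were the more scattered. The means were 212 ± 26.9 and 83.2 ± 7.40 RPKM (SD, n = 3 each), with a log2 fold change of -1.12 ± 0.11 (edgeR adjusted p = 4.77e-07).

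AN8283 stood at 119, 151 and 157 RPKM untreated and at 30.7, 29.0 and 29.1 RPKM with tyrosol. The tyrosol libraries were nearly level with one another and all far below the untreated ones. The means were 142 ± 20.4 and 29.6 ± 0.995 RPKM (SD, n = 3 each), with a log2 fold change of -2.04 ± 0.11 (edgeR adjusted p = 9.46e-10).

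Within each library AN1901 had the higher level of the pair. Untreated, the AN1901 level was 2.0, 1.4 and 1.18 times that of AN8283, and with tyrosol 2.70, 2.62 and 3.12 times. Untreated replicate 1 held the highest AN1901 and the lowest AN8283 value of its group, so its ratio stood nearest to the tyrosol libraries, yet it remained below all of them. The mean log2 ratio of (RPKM + 0.5) went from 0.57 ± 0.39 to 1.47 ± 0.13 (SD, n = 3 each), a difference of 0.90 or 1.87-fold. The exact two-sided permutation test gave p = 0.1, again the smallest this design allows, so the test cannot pass a threshold of 0.05.

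Taken as a sum, the demethylase transcripts went from 354 ± 10.6 to 113 ± 7.55 RPKM (SD, n = 3 each). The summed values were 358, 362 and 342 RPKM untreated and 114, 105 and 120 RPKM with tyrosol, a narrower untreated spread than either gene had alone. AN1901 made up 66.7%, 58.3% and 54.1% of the sum without tyrosol and 73.0%, 72.4% and 75.7% with it. The mean share was 59.7 ± 6.42% untreated and 73.7 ± 1.76% with tyrosol. Values of gene copies are uncertain where the read counter could split their reads, and its treatment of reads matching both copies is not given in the sources used here.

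**Figure D1:**
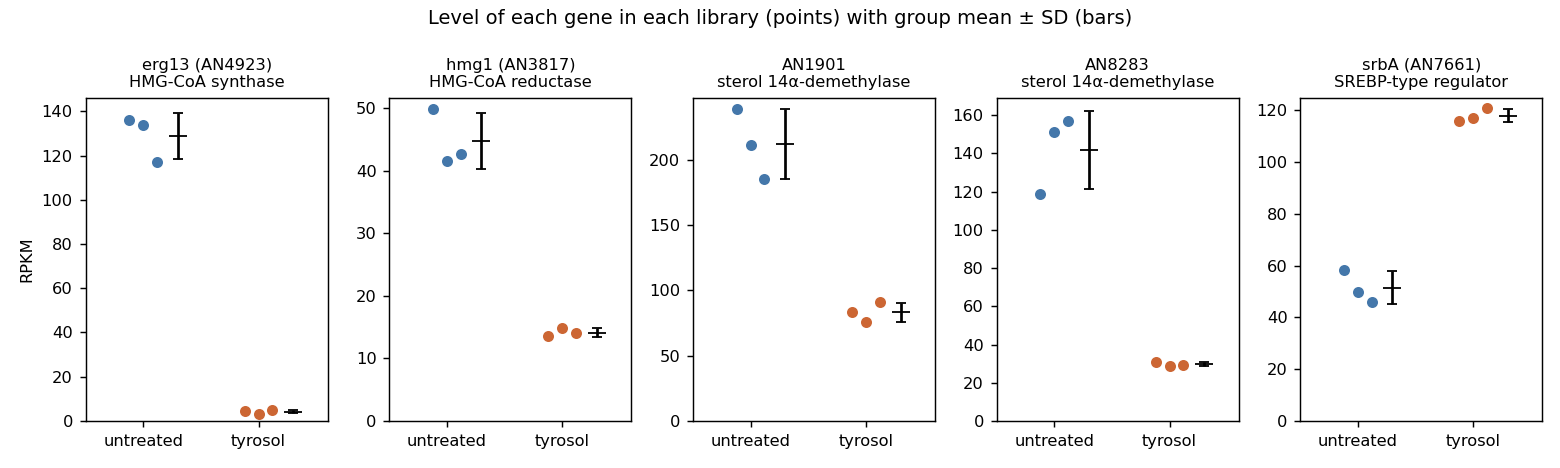
RPKM of the 5 genes (vertical axes, each starting at 0, on separate scales) in the 3 untreated and 3 tyrosol libraries, shown as points in replicate order, with the group mean ± SD as a bar beside them. The 4 enzyme genes are lower in every tyrosol library, erg13 reaching 3.28 to 4.75 RPKM, while srbA is higher in every tyrosol library at 116 to 121 RPKM.

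**Figure D2:**
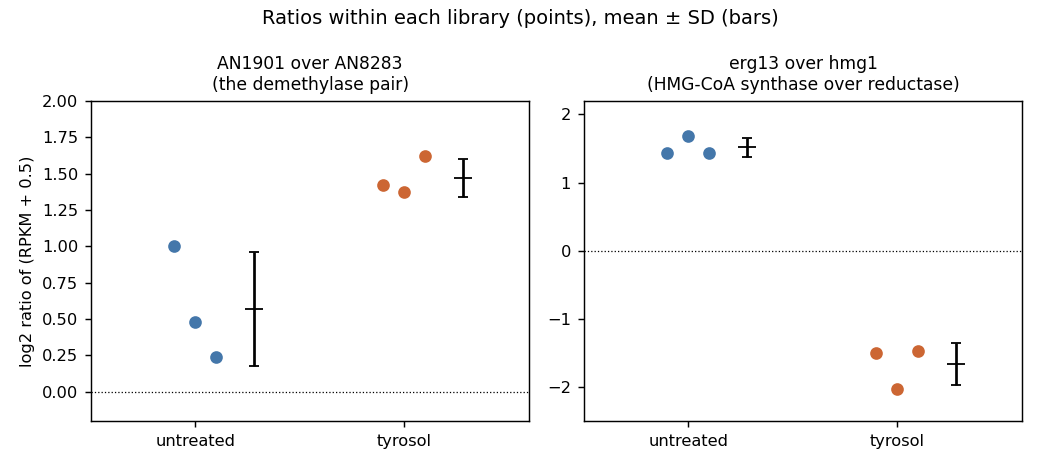
Log2 ratio of (RPKM + 0.5) within each library for AN1901 over AN8283 (left) and erg13 over hmg1 (right), with the mean ± SD of 3 libraries as a bar and a dotted line at equal levels. The demethylase ratio lies between 0.24 and 1.0 untreated and between 1.37 and 1.62 with tyrosol, and the erg13 ratio passes from above to below equality.

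The regulator gene srbA moved against the enzyme genes. It stood at 58.5, 49.8 and 46.1 RPKM in untreated cultures and at 116, 117 and 121 RPKM with tyrosol. The tyrosol libraries were all high and differed little from one another. The means were 51.5 ± 6.38 and 118 ± 2.48 RPKM (SD, n = 3 each), with a log2 fold change of 1.42 ± 0.10 (edgeR adjusted p = 1.54e-08). The srbA level was 0.432, 0.372 and 0.395 times that of erg13 untreated, and 26.3, 35.8 and 25.4 times with tyrosol. Against AN1901 it was 0.245, 0.236 and 0.249 times untreated and 1.40, 1.55 and 1.33 times with tyrosol. The counts measure the srbA transcript and carry no information on cleavage or location of the protein.

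In the order of the 5 levels srbA moved to the top and erg13 to the bottom, while AN1901 stayed above AN8283 and AN8283 above hmg1. Untreated, the mean RPKM ran from AN1901 (212) through AN8283 (142), erg13 (129) and srbA (51.5) to hmg1 (44.7). In that order AN8283 and erg13 had overlapping ranges, and the higher of them differed between libraries, so that pair cannot be ranked. The ranges of srbA and hmg1 overlapped too. Within untreated replicates 1, 2 and 3, however, the srbA level was 1.17, 1.2 and 1.08 times that of hmg1. With tyrosol the order ran from srbA (118) through AN1901 (83.2), AN8283 (29.6) and hmg1 (14.1) to erg13 (4.15), and no neighbouring ranges overlapped. Among all tested features, erg13 went from above 90.0% of them in mean RPKM to above 20.4%. AN8283 went from above 90.9% to above 63.5%, hmg1 from above 71.4% to above 44.6% and AN1901 from above 94.0% to above 84.3%. The srbA gene went from above 74.6% to above 88.3%.

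Groups that lie wholly apart are common in these data: all tyrosol RPKM values were below all untreated ones for 49.8% of tested features and above them for 35.1%. The relative spread of the members (SD as a share of the mean) was 8.01% to 14.3% untreated, with a median of 10.7% over tested features. It was 2.1% to 18.6% with tyrosol, with a median of 6.82%.

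**Figure D3:**
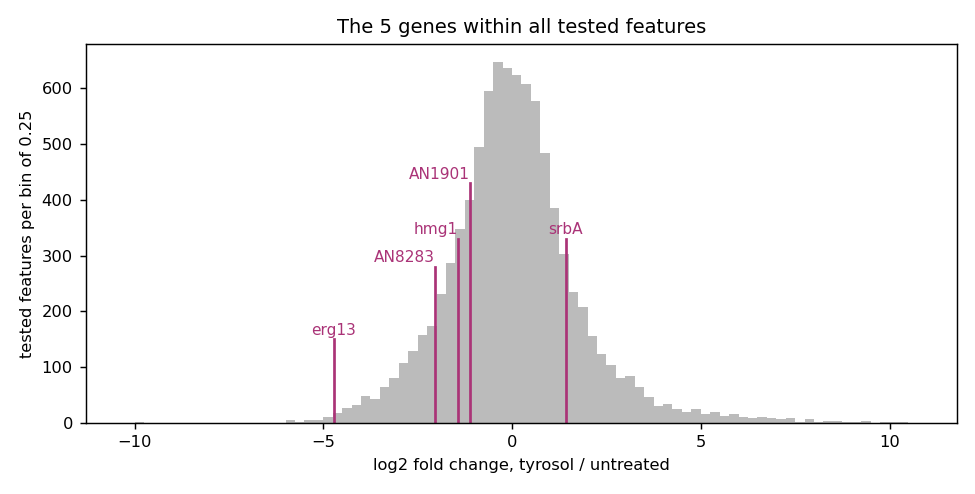
Number of tested features (vertical axis) per bin of 0.25 in log2 fold change, tyrosol over untreated (horizontal axis), for 8905 features, with the 5 genes marked by lines whose heights carry no value. Only erg13 of the 5 lies in the far tail, at -4.73, while hmg1, AN1901, AN8283 and srbA lie where many features do.

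The other genes of the route were taken from a list matched by symbol, which covered 17 genes, erg13 and hmg1 among them. Symbols were matched for 8 of 11 mevalonate names and 8 of 17 sterol names, so the route is covered only in part. Of the 15 genes other than erg13 and hmg1, 14 fell and 1 rose, where 42.9% of all tested features fell. Their median log2 fold change was -1.45, against -0.04 over all tested features. In the mevalonate section all 6 others fell. The farnesyl diphosphate synthase gene erg20, which makes the precursor shared by sterols and other isoprenoids, went from 243 ± 8.90 to 42.8 ± 2.73 RPKM (log2 fold change -2.28 ± 0.09, edgeR adjusted p = 4.89e-11). The remaining mevalonate genes moved less. Log2 fold changes were -0.89 ± 0.08 for erg10B, an acetoacetyl-CoA thiolase gene, and -0.90 ± 0.09 for erg12, the mevalonate kinase gene. The mevalonate diphosphate decarboxylase gene mvd1 was at -1.02 ± 0.08. Log2 fold changes were -0.54 ± 0.09 for erg8, the phosphomevalonate kinase gene, and -0.57 ± 0.10 for idi1, the isopentenyl diphosphate isomerase gene. The fall of erg13 was 26.5-fold. That of erg10B, the only match at the step before it, was 1.86-fold, and that of hmg1, at the step after it, was 2.71-fold.

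In the sterol section 8 of the 9 matched genes fell, 7 of them at least 2-fold, against 42.9% and 24.5% of all tested features. The squalene epoxidase gene erg1, the target of allylamine antifungals, went from 204 ± 44.3 to 13.1 ± 1.27 RPKM (log2 fold change -3.74 ± 0.16, edgeR adjusted p = 1.38e-10). The squalene synthase gene erg9 had a log2 fold change of -2.31 ± 0.10. The other matched genes follow the demethylation step in the order of the yeast route, and their order in Aspergillus nidulans was not examined. The sterol reductase gene erg24B was at -2.67 ± 0.10, the sterol methyltransferase gene erg6 at -2.95 ± 0.12 and the sterol isomerase gene erg2 at -2.70 ± 0.12. The keto-reductase gene erg27 was at -0.98 ± 0.12 and the desaturase gene erg5, another cytochrome P450, at -1.45 ± 0.08. The demethylase genes, at -1.12 and -2.04, lay nearer to 0 than erg1 before them and erg24B after them in the route, and these differences were not tested.

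The last step held a second pair of related symbols, and there the directions were opposite. The sterol reductase gene erg4 went from 45.8 ± 1.33 to 2.87 ± 0.503 RPKM (log2 fold change -3.77 ± 0.13, edgeR adjusted p = 1.42e-11). The gene with the symbol erg4A went from 18.2 ± 1.56 to 55.7 ± 3.16 RPKM (1.84 ± 0.10, edgeR adjusted p = 9.69e-10). The demethylase pair differed in the size of a shared fall, whereas erg4 and erg4A exchanged rank.

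Symbols of genes known to act with SrbA or with the demethylase were matched for 7 of 25 names. Among them, dapB is a symbol that unrelated genes in aspergilli also carry, so no role is given to it. Of the 6 others, 4 rose, 1 fell and 1 did not pass, and dapB rose as well (1.32 ± 0.08). The median log2 fold change was 0.69 over these 6 genes, against -0.04 over all tested features, of which 40.6% rose. Scaled by library size alone, the 7 matches divided into 4 raised, 2 lowered and 1 that did not pass. The gene dscA, which in Aspergillus fumigatus encodes a subunit of the ligase complex needed to cleave SrbA, went from 13.7 ± 1.36 to 34.1 ± 0.744 RPKM (1.54 ± 0.09, edgeR adjusted p = 4.40e-09). The gene atrR, whose Aspergillus fumigatus counterpart is a transcription factor that binds demethylase promoters, went from 21.6 ± 0.366 to 49.6 ± 2.72 RPKM (1.42 ± 0.08, edgeR adjusted p = 2.83e-09). The rises of srbA, dscA and atrR lay between 1.42 and 1.54 on the log2 scale, where 23.1% of all tested features rose at least 2-fold.

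CCAAT-binding complex genes, whose product restrains demethylase transcription in Aspergillus fumigatus, had smaller changes than srbA. The subunit gene hapE rose by 0.94 ± 0.08 on the log2 scale, and hapB was at -0.17 ± 0.10 (edgeR adjusted p = 0.14). Scaled by library size alone, hapB was lowered (-0.39, edgeR adjusted p = 0.00216). It was also lowered with upper-quartile factors (-0.23, edgeR adjusted p = 0.0418) and with limma on log2 RPKM. The same held without untreated replicate 3 (-0.22, edgeR adjusted p = 0.0466). The partner gene hapX was at 0.44 ± 0.12 (edgeR adjusted p = 0.00381), with overlapping groups in RPKM. It did not pass when scaled by library size alone (0.21, edgeR adjusted p = 0.111) or with limma on log2 RPKM. The reductase gene cprA, which passes electrons to cytochromes P450 such as the demethylases, fell from 178 ± 8.69 to 99.7 ± 3.28 RPKM (-0.61 ± 0.08, edgeR adjusted p = 8.84e-06). Of 19 names for sterol transport, sterol esters and prenyl branches only ncr1 (-0.30 ± 0.11) and cox10 (-0.37 ± 0.09) were matched. The fall of ncr1 did not pass with DESeq2 size factors (-0.25, adjusted p = 0.0511), or with 1 library left out, unless that was untreated replicate 3 (adjusted p = 0.0662 to 0.109).

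**Figure D4:**
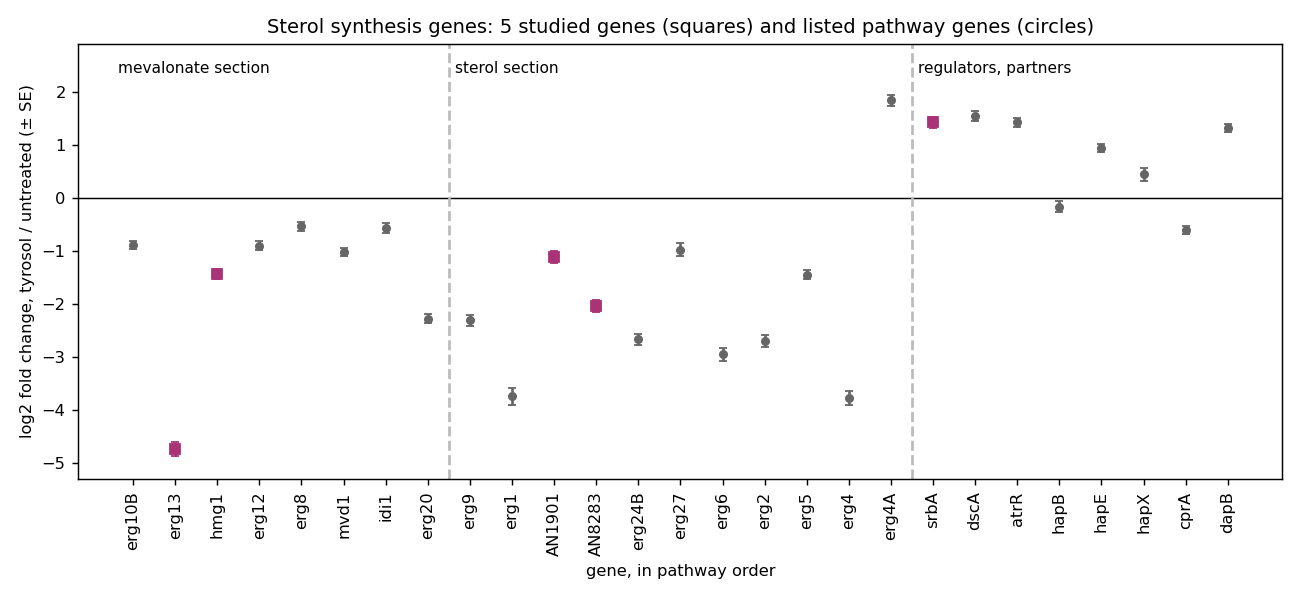
Log2 fold change ± SE, tyrosol over untreated (vertical axis), of the listed sterol genes in the order of the yeast route, followed by srbA and the genes of its partners; squares mark the 5 genes and circles the listed others. All enzyme genes of the route lie below 0 except erg4A at 1.84, with erg13 the lowest at -4.73. Above 0 lie srbA, dscA, atrR, hapE, hapX and dapB, whereas hapB and cprA lie below it.

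The surroundings of the genes differed. The 5 features on each side of every member were read from the gene order of a RefSeq table. AN1901 lies beside the homogentisate breakdown genes, the route that opens the ring of aromatic compounds: fahA, hmgA, hmgX, AN1899 and AN1900 precede it in that order. These 5 features had log2 fold changes of 9.06 ± 0.14, 7.96 ± 0.13, 7.96 ± 0.15, 8.53 ± 0.13 and 3.58 ± 0.09. AN1900, the immediate neighbour, went from 29.1 ± 1.20 to 297 ± 18.0 RPKM. AN1901 fell directly beside that rise. On its other side AN1902 rose by 1.71 ± 0.08 and AN1904 was at -1.50 ± 0.09. The adjacent feature on that side, AN10245, and AN10246 have no values in these data, and AN1903 was not tested. In all, 6 of the 7 tested neighbours of AN1901 rose and 1 fell, where 40.6% of all tested features rose and 42.9% fell. The strand setting of the counts is not stated in the sources, so reads that run from AN1900 into AN1901 could not be separated from its own, and their part in the AN1901 value was not tested.

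Read against the same shares, AN8283 had 3 raised and 7 lowered neighbours of 10, with AN8284 next to it at -2.56 ± 0.12 and AN8282 at -0.71 ± 0.11. For erg13, 3 neighbours rose, 2 fell and 4 did not pass. Their median log2 fold change was -0.03 over the 9 tested. The nearest tested ones were AN4922, at 1.78 ± 0.15, and AN4925, at -0.03 ± 0.09. The fall of erg13 was larger than that of any tested neighbour. For hmg1, 3 neighbours rose, 5 fell and 2 did not pass. Around srbA 6 rose, 1 fell and 2 did not pass, with AN10990 at 1.45 ± 0.12 on one side and AN7662 at 2.09 ± 0.09 on the other. Scaled by library size alone, the lowered neighbours numbered 5 for erg13, 6 for hmg1 and 3 for srbA, and the counts for AN1901 and AN8283 were the same as with TMM.

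**Figure D5:**
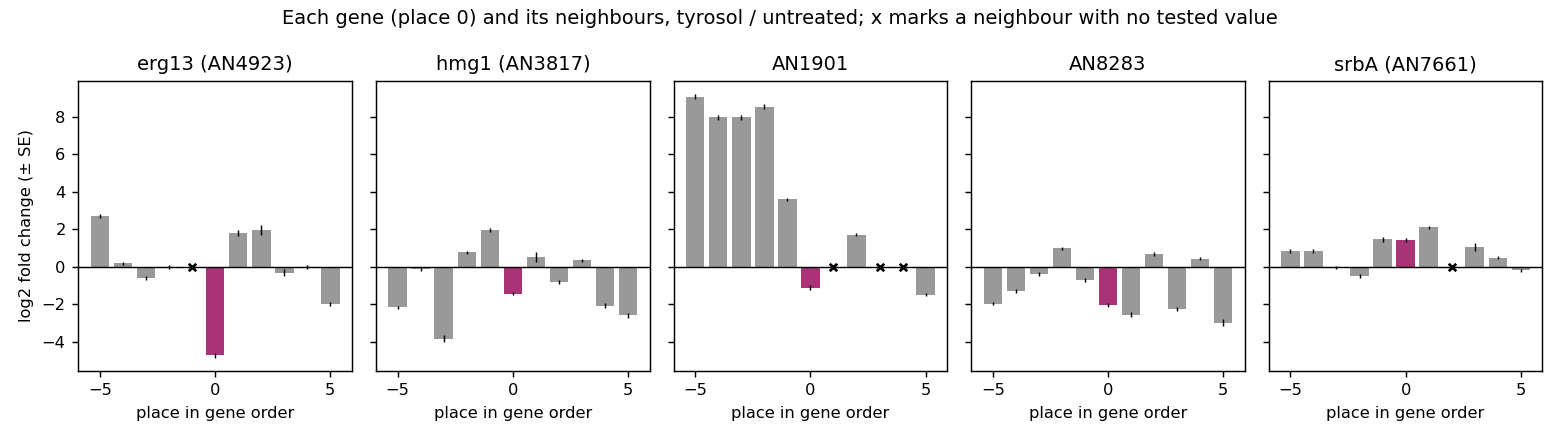
Log2 fold change ± SE, tyrosol over untreated (shared vertical axis), of each of the 5 genes (coloured bar at place 0) and of the 5 features on each side of it in the reference gene order (grey bars); a cross marks a neighbour with no tested value. AN1901 is a lowered gene beside 4 features raised by 7.96 to 9.06, and erg13, at -4.73, is the lowest bar of its panel, with AN4918 at -1.99 the next.

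For each member the named genes with the most similar profile were found among 715 named features, by Euclidean distance between centred log2(RPKM + 0.5) profiles over the 6 libraries. With only 2 conditions such likeness mostly reflects a fold change of the same size. Nearest to erg13 were flbC, a conidiation regulator gene (distance 0.56), and sC, the ATP sulfurylase gene (0.65). The other members had closer matches. Nearest to hmg1 were apsB and hmt1 (both 0.15), and nearest to AN1901 were gpdA, the glycolytic glyceraldehyde phosphate dehydrogenase gene (0.14), and the kinase gene mpkC (0.18). Nearest to AN8283 were pyrG, a pyrimidine synthesis gene (0.13), and tif34, named after a yeast translation initiation factor (0.20). Nearest to srbA were car2 (0.13) and atg26 (0.15), the latter named after a sterol glucosyltransferase of yeast. The gpdA level was far above that of AN1901, at 3750 ± 474 RPKM untreated and 1430 ± 91.7 RPKM with tyrosol, with a log2 fold change of -1.16 ± 0.10.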

How the data were processed

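Per the labels' protocols, RNA was extracted from lyophilized mycelium and made into libraries with a TruSeq RNA kit. Tools listed by the submitters' processing notes are HISAT2 2.1.0, FastQC, edgeR and DESeq2 1.24.0, without roles. The read counter, its strand setting, the genome build and the annotation are not given in the sources. The deposited table holds raw read counts, feature lengths and RPKM values, per the file headers. The RPKM values the authors deposited equal count over length and column total. Columns headed T were read as tyrosol and K as untreated (Hungarian kontroll), with their numbers as replicate numbers. Nothing says that replicates came from separate cultures, so p-values measure the spread between these libraries, which may be technical.

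Symbols and gene order came from RefSeq (ASM1142v1), which matched 10029 features (91.3%) and gave symbols to 778. Counts were filtered (filterByExpr), scaled (TMM) and tested with edgeR 4.0.16 in R 4.3.3, quasi-likelihood, two-sided, with Benjamini-Hochberg adjustment over all tested features and a threshold of 0.05. The test was also run on simulated counts in which few genes changed. That run does not cover a response in which 83.5% of tested features were called changed. The 2 ratios were compared by exact two-sided permutation over libraries. Members and lists were chosen with earlier results of these data known. Named are the members, genes of the lists, 5 neighbours on each side, and the 2 most similar named profiles per member (mean log2 CPM of at least 3). Alternatives were other scalings, filters, DESeq2 1.42.0, limma 3.58.1 (voom, or log2 RPKM), a replicate block, a threshold of 0.01 and leaving out each library. No sequences are printed.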

Additional observations from a re-analysis of the deposited data

How the results depend on the processing

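Under every alternative run, the 5 genes kept their direction and stayed past the threshold, the 2 ratios kept their direction, and the counts of changed features and of sterol genes stayed within 1.5 times. With other scalings, filters, tools, the threshold of 0.01 or the replicate block, log2 fold changes ran from -4.95 to -4.66 for erg13, -1.66 to -1.39 for hmg1, -1.35 to -1.08 for AN1901, -2.27 to -2.00 for AN8283 and 1.19 to 1.47 for srbA. Leaving out 1 library gave -4.84 to -4.56, -1.49 to -1.35, -1.22 to -1.02, -2.15 to -1.97 and 1.34 to 1.53 in the same order. The AN1901 to AN8283 ratio difference ran from 0.73 to 1.11 and the erg13 to hmg1 difference from -3.28 to -3.01 when 1 library was left out. The counts of 16 lowered and 1 raised sterol gene were the same in all of these settings.

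Library size as the only scaling shifted the median of all features by -0.22 on the log2 scale, and 41.1% of changed features were then raised, against 48.7% with TMM. Changes are relative to that choice. Same-numbered libraries did not deviate together (correlations -0.082, -0.006 and -0.04). These values cannot tell whether such libraries were grown or processed together. The replicate block called 7383 features against 7432. Read depth limits only the tyrosol values of erg13 among the members.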
